A study of Drosophila melanogaster with 8 samples.

Results

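Among the genes of the large ribosomal subunit of Drosophila melanogaster, 4 pairs of paralogues were followed in RNA from testis ribosomes: RpL22-like and RpL22, RpL24-like and RpL24, RpL34b and RpL34a, and RpL37b and RpL37a. The 8 genes were chosen by name among the 12051 genes of the deposited table, not by their values, and all 8 were found. Earlier results of these data were known when the genes were chosen. RNA came from immunoprecipitates made with antibodies to eRpL22-like or to eRpL22, the proteins of the first pair, and the study asks which RNAs sit on ribosomes carrying either one. The table holds 4 eRpL22-like pulldowns and 3 eRpL22 pulldowns, and eRpL22 replicate 4 was not analysed here. All flies were wild type, 2 to 7 days old and grown on standard corn-meal food, and all RNA came from testis. No input RNA and no mock precipitate are listed, so a transcript held by ribosomes cannot be told apart from background common to both pulldowns.

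A ribosome normally holds a single copy of each of its proteins, so 2 paralogues of the same protein cannot both fill its place in one particle. eRpL22 binds RNA and in flies carries an extension that resembles part of histone H1, and eRpL22-like is its relative enriched in the male germline. RpL24 lies at the bridge between the subunits. RpL24-like is related to yeast Rlp24, a factor that accompanies the immature large subunit and is later exchanged for the ribosomal protein. RpL34a and RpL34b encode closely related forms of a structural protein of the large subunit, and RpL37a and RpL37b those of a small zinc-binding protein. The current symbols of RpL37a and RpL37b are RpL37-1 and RpL37-2, and the similarly spelled RpL37A is a different ribosomal protein gene that is not in the pair. The antibodies bind the proteins, whereas the values here are of messenger RNAs, those of RpL22 and RpL22-like included.

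Recovered reads over the listed genes numbered 22448043 to 25159184 in the 4 eRpL22-like libraries and 15971685 to 26346787 in the 3 eRpL22 libraries. Levels are normalized reads, the authors' counts divided by a factor of each library, where 1 read is worth 0.747 to 1.50. All 10 male germline markers looked up were present, at 1.09% to 1.31% of reads with eRpL22-like and 1.30% to 1.37% with eRpL22. Most of that share came from Mst87F and dj, with means of 122956 and 97022 normalized reads over the libraries. The means of vas, aly, bam and nos were 500, 281, 93 and 23. Accessory gland genes (5 of 5 present) took 0.112% to 0.203% with eRpL22-like and 0.117% to 0.200% with eRpL22, and hub and cyst cell genes (5 of 5 present) 0.00892% to 0.0133% with eRpL22-like and 0.00441% to 0.0149% with eRpL22. Muscle genes (5 of 5 present) took 0.0155% to 0.0686% with eRpL22-like and 0.00945% to 0.0176% with eRpL22. Of 5 ovary genes, 2 were in the table, at no more than 0.000486% of any library, and no gene of these lists that was in the table was at 0 in every library. The part of other cell types in the results below was not tested, and in such bulk RNA fewer cells of a type and less RNA per cell cannot be told apart. A library of each pulldown was high in transcripts of large-subunit genes. The 42 large-subunit genes outside the pairs summed to 376118 normalized reads in eRpL22-like replicate 1 and 443126 in eRpL22 replicate 1, against 180644 to 275303 in the other 5 libraries. Of the 8 paralogue genes, 7 were highest in eRpL22 replicate 1 and the eighth, RpL24, in eRpL22-like replicate 1.

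All 8 transcripts were recovered with both pulldowns, and none passed the test between them. With Benjamini-Hochberg adjustment limma called 0 of 11174 genes (0.0%), and 4.11% of them had an unadjusted p under 0.05. Among the 8 genes, 0 had an unadjusted p under 0.05, although that of RpL22 was 0.0495 with a pseudocount of 5 and 0.0326 with quantile normalization. Library values of the 2 pulldowns overlapped for every one of the 8, where 5.14% of all tested genes did not overlap. Mean levels with eRpL22-like were 0.435 to 0.753 times those with eRpL22 for RpL22-like, RpL22, RpL34a, RpL34b, RpL37a and RpL37b, 0.967 times for RpL24-like and 1.16 times for RpL24. Without eRpL22 replicate 1 these ratios were 0.483 for RpL22-like, 0.940 for RpL22, 0.932 for RpL34b, 0.944 for RpL37b, 1.01 for RpL34a, 1.23 for RpL37a, 1.58 for RpL24-like and 1.59 for RpL24. For RpL24 the ratio was 0.766 without eRpL22-like replicate 1. On the log2 scale of the fit, 6 of the 8 were negative with a median of -0.48, against a median of -0.03 and a negative share of 51.2% over all tested genes. Of the 42 other large-subunit genes, 81.0% were negative, with a median of -0.19, so a high negative share was not particular to the 8. The labels do not state whether the replicates were separate cultures or dissections, so the p-values weigh differences against a spread between libraries that may be technical.

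**Figure D1:**
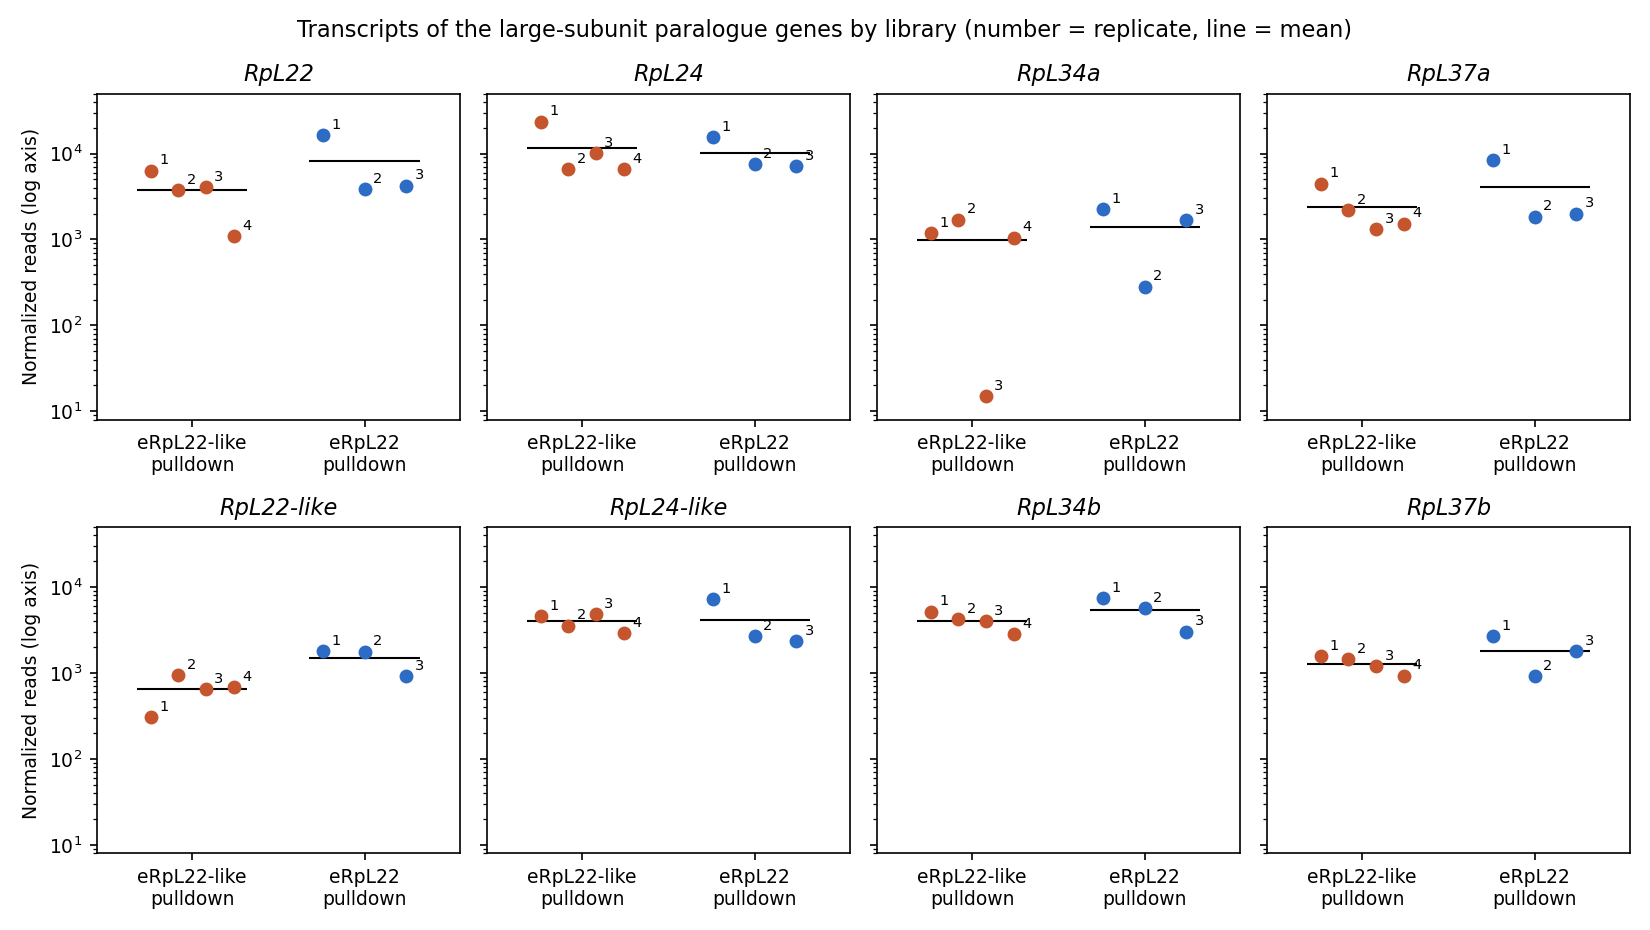
Normalized reads (log axis) of each gene in the 4 eRpL22-like libraries (left of each panel) and the 3 eRpL22 libraries (right), with replicate numbers and group means as lines. Groups overlap in all 8 panels; RpL34a in eRpL22-like replicate 3, at 14.9 normalized reads, lies far below its other values.

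The transcripts of the precipitated proteins themselves were not called. RpL22-like (FBgn0034837) had 305, 949, 648 and 686 normalized reads in eRpL22-like replicates 1 to 4, against 1782, 1767 and 911 in eRpL22 replicates 1 to 3. The overlap lay between the highest eRpL22-like library and the lowest eRpL22 library alone, and the other libraries separated by pulldown. Its means were 647 ± 264 (SD, n = 4) with eRpL22-like and 1487 ± 498 (SD, n = 3) with eRpL22. The limma log2 fold change of RpL22-like was -1.24, SE 0.84 (unadjusted p = 0.146, adjusted p = 0.945), and its 95% interval ran from 0.130-fold to 1.37-fold.

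RpL22 (FBgn0015288) had 6312, 3776, 4040 and 1084 normalized reads in eRpL22-like replicates 1 to 4, against 16441, 3861 and 4228 in eRpL22 replicates 1 to 3. Outside the low eRpL22-like replicate 4 and the high eRpL22 replicate 1, the other 5 libraries were between 3776 and 6312. The limma log2 fold change of RpL22 was -1.01, SE 0.51 (unadjusted p = 0.0562, adjusted p = 0.945), with a 95% interval of 0.241-fold to 1.02-fold. The log2 fold change was -0.34 without eRpL22 replicate 1 and -0.49 without eRpL22-like replicate 4. RpL22 levels equalled 1.38% ± 0.540 (SD, n = 4) of the summed level of the 42 other large-subunit genes with eRpL22-like and 2.41% ± 1.14 (SD, n = 3) with eRpL22. Scaled to that sum, a choice made after the data were seen, its log2 fold change was -0.82 and that of RpL22-like was -1.05. The annotated span of RpL22 in RefSeq's Release 6 plus ISO1 MT assembly holds the non-coding gene CR42491 and 2 snoRNA genes. CR42491 had 1.50 to 380 normalized reads over the 7 libraries, and reads of overlapping genes may have been counted for either.

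Each library held fewer RpL22-like reads than RpL22 reads, at a ratio that varied widely among libraries of the same pulldown. RpL22-like gave 4.61%, 20.1%, 13.8% and 38.8% of the reads of the pair in eRpL22-like replicates 1 to 4 and 9.78%, 31.4% and 17.7% in eRpL22 replicates 1 to 3. The lowest share, 4.61% (exact 95% binomial interval 4.14% to 5.12%, 335 of 7266 reads), and the highest, 38.8% (36.8% to 40.8%, 896 of 2312 reads), were both from the eRpL22-like pulldown. These Clopper-Pearson intervals cover counting error alone, not the spread between libraries. Without molecular identifiers several reads can stem from 1 molecule, so the intervals may be too narrow even for counting error. The shares of these libraries differed by far more than their intervals. The log2 ratio of RpL22-like to RpL22 averaged -2.41 ± 1.54 (SD, n = 4) with eRpL22-like and -2.18 ± 1.04 (SD, n = 3) with eRpL22. The difference of -0.23 was smaller than either spread (exact permutation test, two-sided, p = 0.886). It was -0.74 without eRpL22 replicate 1, -0.82 without eRpL22-like replicate 4, 0.30 without eRpL22 replicate 2 and 0.42 without eRpL22-like replicate 1. The test compared 4 pair ratios, 1 for each pair, and the smallest p it can give with 4 against 3 libraries is 0.0286. Transcript lengths are not in the sources used here, so ratios of reads do not say which gene of a pair was at the higher level per length. Gene length does not change between pulldowns, so the comparison of ratios between them is free of it.

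**Figure D2:**
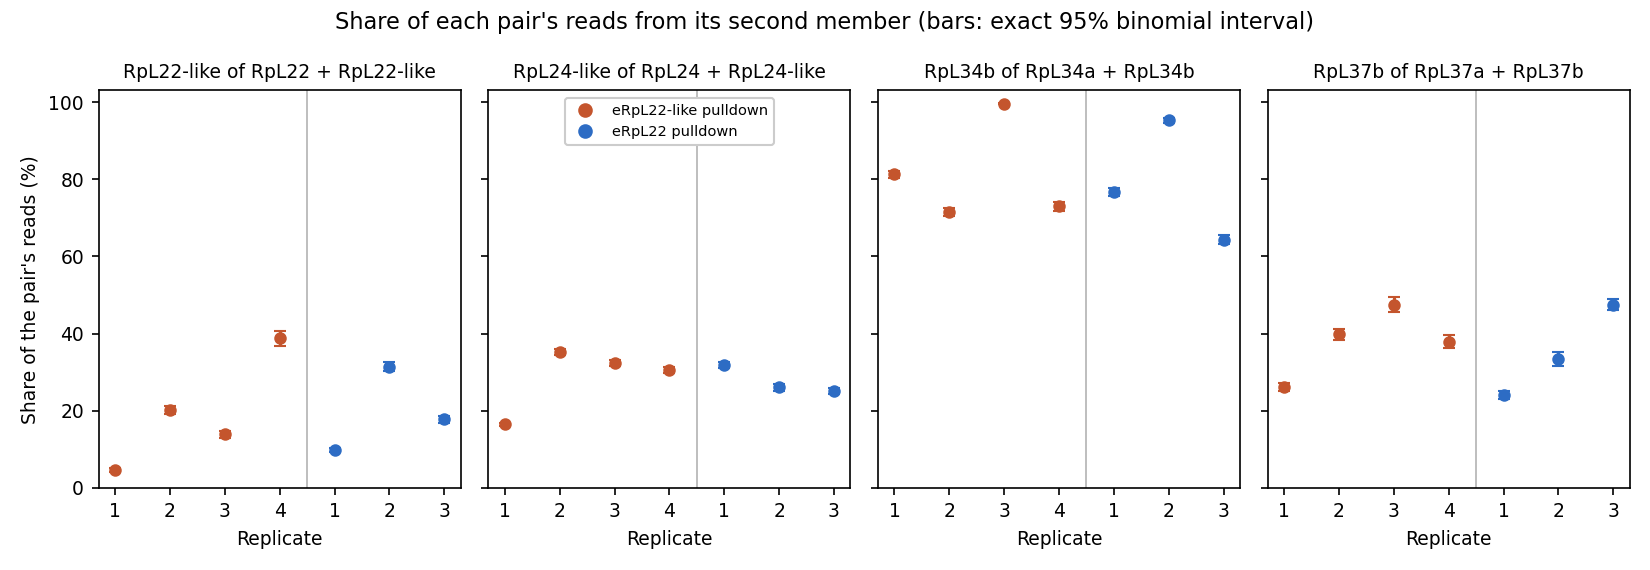
Share of the reads of each pair (%) that came from RpL22-like, RpL24-like, RpL34b or RpL37b in each library, with the eRpL22-like replicates left of the line and the eRpL22 replicates right of it; bars are exact 95% binomial intervals. Shares overlap between pulldowns in every pair, and RpL34b reaches 99.6% in eRpL22-like replicate 3.

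The means of RpL24 and RpL24-like with eRpL22-like were 1.16 and 0.967 times those with eRpL22, and 1.59 and 1.58 times without eRpL22 replicate 1. RpL24 (FBgn0032518) had 23562, 6547, 10069 and 6643 normalized reads in eRpL22-like replicates 1 to 4, against 15652, 7594 and 7103 in eRpL22 replicates 1 to 3. Replicate 1 was the highest library of both pulldowns, and the other 5 lay between 6547 and 10069. Of the 8 genes, RpL24 alone was not highest in eRpL22 replicate 1. Its limma log2 fold change was 0.09, SE 0.36 (unadjusted p = 0.797, adjusted p = 0.979), and the 95% interval of 0.645-fold to 1.76-fold was the narrowest among the 8. The log2 fold change was -0.32 without eRpL22-like replicate 1 and 0.46 without eRpL22 replicate 1.

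RpL24-like (FBgn0037899) had 4629, 3547, 4827 and 2909 normalized reads in eRpL22-like replicates 1 to 4, against 7302, 2673 and 2372 in eRpL22 replicates 1 to 3. All 4 eRpL22-like libraries lay above the 2 lower eRpL22 libraries and below eRpL22 replicate 1. The limma log2 fold change of RpL24-like was 0.12, SE 0.46 (unadjusted p = 0.799, adjusted p = 0.979), with a 95% interval of 0.568-fold to 2.07-fold. It was 0.63 without eRpL22 replicate 1. The RefSeq annotation has RpL24 overlapping CG7099 and RpL24-like overlapping CG18643, at up to 64.2 and 328 normalized reads in any library.

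RpL24-like gave 16.4%, 35.1%, 32.4% and 30.5% of the reads of its pair in eRpL22-like replicates 1 to 4 and 31.8%, 26.0% and 25.0% in eRpL22 replicates 1 to 3. Apart from eRpL22-like replicate 1, where RpL24 was highest, the shares stayed between 25.0% and 35.1%. The log2 ratio of RpL24-like to RpL24 averaged -1.37 ± 0.66 (SD, n = 4) with eRpL22-like and -1.40 ± 0.26 (SD, n = 3) with eRpL22, a difference of 0.03 (exact permutation test, two-sided, p = 0.971) that was 0.17 without eRpL22 replicate 1. The SD over the 7 libraries, 0.49, was the smallest of the 4 pairs.

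RpL34a had the widest range among the 8 genes and its partner RpL34b the narrowest. RpL34b (FBgn0037686) had 5182, 4274, 3984 and 2843 normalized reads in eRpL22-like replicates 1 to 4, against 7493, 5710 and 3024 in eRpL22 replicates 1 to 3. With 1 added to each value, its highest library was 2.64 times its lowest, and 71.2% of the 3483 genes whose mean reached 1000 had a range at least that wide. The limma log2 fold change of RpL34b was -0.35, SE 0.42 (unadjusted p = 0.418, adjusted p = 0.945), and -0.06 without eRpL22 replicate 1.

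RpL34a (FBgn0039406) had 1189, 1706, 14.9 and 1055 normalized reads in eRpL22-like replicates 1 to 4, against 2265, 283 and 1676 in eRpL22 replicates 1 to 3. The value of 14.9 rested on 16 reads, above the 3 reads that a count of 0 allows, and eRpL22 replicate 2 had 278 reads. The other 5 libraries lay between 1055 and 2265 normalized reads. With 1 added to each value, its highest library was 142 times its lowest, a range reached by 148 of the 3483 genes of that class (4.25%) and nearly by RpL30 among the 42 other large-subunit genes, at 127 times. RpL30, named after its values were seen, had its low value of 23.7 normalized reads in another library, eRpL22-like replicate 1. The limma log2 fold change of RpL34a was -1.25, SE 1.22 (unadjusted p = 0.310, adjusted p = 0.945), whose 95% interval of 0.0756-fold to 2.32-fold was the widest of the 8. It was 0.33 without eRpL22-like replicate 3 and -0.68 without eRpL22 replicate 1. The ratio of means, 0.704, was 0.935 without eRpL22-like replicate 3.

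RpL34b gave more reads than RpL34a in all 7 libraries. Its share of the reads of the pair was 81.3%, 71.5%, 99.6% and 72.9% in eRpL22-like replicates 1 to 4 and 76.8%, 95.3% and 64.3% in eRpL22 replicates 1 to 3. The summed level of the pair was 3898 to 6371 normalized reads with eRpL22-like and 4700 to 9758 with eRpL22. RpL34b made up most of that sum, so a range narrower than that of RpL34a says nothing on how reads were divided. The log2 ratio of RpL34b to RpL34a averaged 3.21 ± 3.19 (SD, n = 4) with eRpL22-like and 2.30 ± 1.81 (SD, n = 3) with eRpL22 (difference 0.91, exact permutation test, two-sided, p = 0.800). The difference was -0.68 without eRpL22-like replicate 3, 0.62 without eRpL22 replicate 1, 0.18 without eRpL22 replicate 3 and 1.92 without eRpL22 replicate 2. As paralogues of similar sequence, the genes of the pairs can share reads, and how reads matching both were assigned is not given in the sources used here, so the division within a pair is uncertain.

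RpL37a and RpL37b were, like RpL22, highest in eRpL22 replicate 1. RpL37a (FBgn0030616) had 4456, 2187, 1320 and 1531 normalized reads in eRpL22-like replicates 1 to 4, against 8417, 1848 and 1997 in eRpL22 replicates 1 to 3. The limma log2 fold change of RpL37a was -0.58, SE 0.58 (unadjusted p = 0.328, adjusted p = 0.945), and 0.13 without eRpL22 replicate 1. RpL37b (FBgn0034822) had 1580, 1444, 1194 and 932 normalized reads in eRpL22-like replicates 1 to 4, against 2676, 926 and 1801 in eRpL22 replicates 1 to 3. The 4 eRpL22-like values of RpL37b lay between the lowest and the middle eRpL22 value. Its log2 fold change was -0.38, SE 0.68 (limma unadjusted p = 0.574, adjusted p = 0.961), and -0.03 without eRpL22 replicate 1.

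RpL37b gave 26.2%, 39.8%, 47.5% and 37.8% of the reads of its pair in eRpL22-like replicates 1 to 4 and 24.1%, 33.4% and 47.4% in eRpL22 replicates 1 to 3. The share was lowest in replicate 1 of each pulldown, where RpL37a was highest, and came near parity of reads in replicate 3 of each. The log2 ratio of RpL37b to RpL37a averaged -0.74 ± 0.56 (SD, n = 4) with eRpL22-like and -0.93 ± 0.75 (SD, n = 3) with eRpL22 (difference 0.19, exact permutation test, two-sided, p = 0.657). The difference was -0.17 without eRpL22 replicate 1. Across the 4 pairs, the ranges of ratios overlapped between pulldowns in every one.

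**Figure D3:**
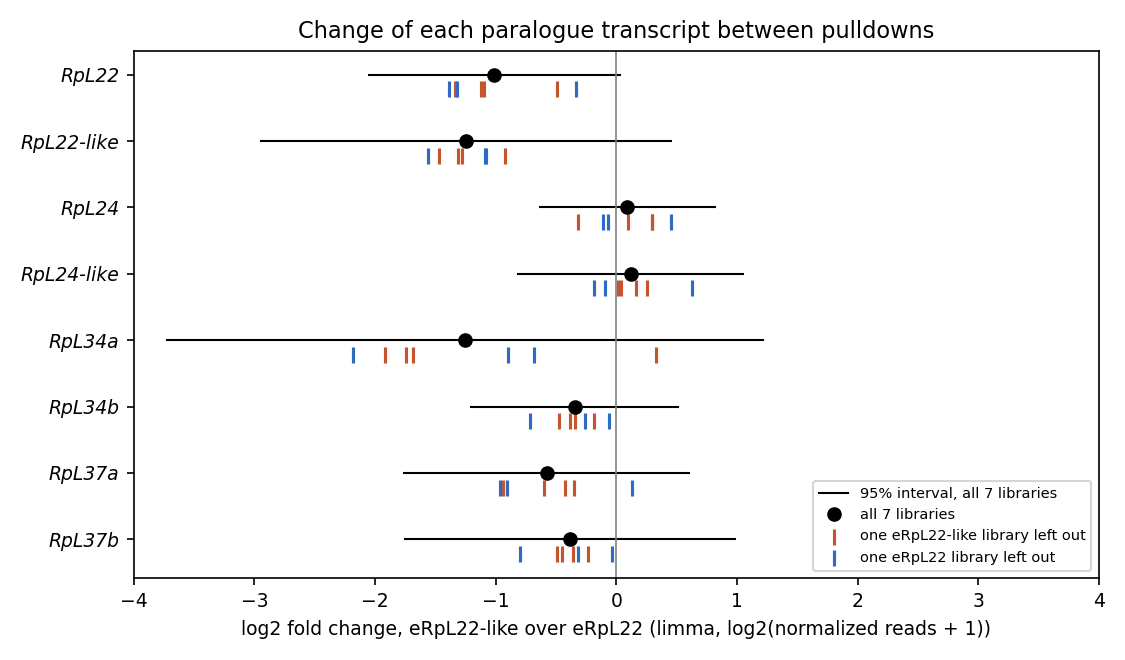
Limma log2 fold change between pulldowns (eRpL22-like over eRpL22) for each gene (black points) with its 95% interval (black lines); coloured ticks give the value with 1 library left out. Every interval spans 0, and ticks cross 0 for RpL24, RpL24-like, RpL34a and RpL37a.

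The highs and lows of the 8 genes can be read by library. In eRpL22 replicate 1, RpL22 stood 1.93, RpL37a 1.75 and RpL34a 1.86 log2 units above their means over the 7 libraries, and the sum of the 42 other large-subunit genes stood 0.74 above. In that library RpL24, RpL24-like, RpL34b and RpL37b stood 0.67 to 0.96 above, close to that sum. eRpL22-like replicate 1 was also above the mean for this sum, by 0.50, and for RpL24, by 1.26, while RpL22-like stood at -1.50 there. In eRpL22-like replicate 4 the sum stood at -0.56 and RpL22 at -1.99, and 7 of the 8 genes were below their means. The part of these library differences in the results was not tested beyond the values without each library.

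**Figure D4:**
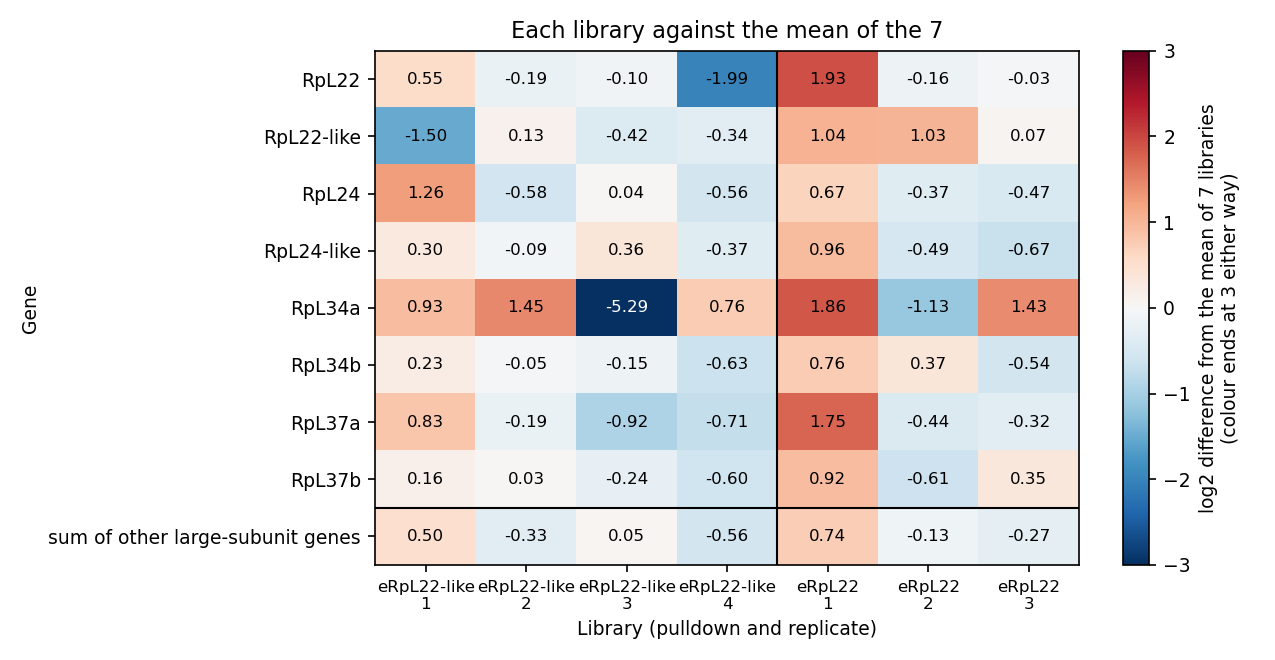
Log2 difference of each library from the mean of the 7 libraries, for the 8 genes and for the summed level of the 42 other large-subunit genes (bottom row); the eRpL22-like libraries are left of the line and the eRpL22 libraries right of it. eRpL22 replicate 1 is positive in every row, and the lowest cell is RpL34a in eRpL22-like replicate 3, at -5.29.

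No other ribosomal protein gene listed was called either. Of the 42 other large-subunit genes, 0 were called in either direction and 34 were negative, with a median log2 fold change of -0.19. RpL8 and RpL41, which had the most reads of this list, had limma log2 fold changes of -0.11 (SE 0.28) and -0.33 (SE 0.29), at adjusted p-values of 0.973 and 0.945. Library values of 1 of the 42 did not overlap, RpL36, named after its values were seen and lower with eRpL22-like (limma log2 fold change -0.82, SE 0.42, adjusted p = 0.945). Of 13 small-subunit paralogues, 0 were called, with 7 positive and 6 negative and a median of 0.11, and RpS10b and RpS5a had log2 fold changes of 0.20 and 0.11. Of 4 other large-subunit paralogues listed, 3 were in the table and 0 were called. Library values of 1 of the 3, RpL10Aa, did not overlap and were higher with eRpL22-like, at 2918 to 4904 normalized reads against 2259 to 2755 with eRpL22. Beside these counts of 1 of the 42 and 1 of the 3, 5.14% of all tested genes did not overlap. Among the other paralogues RpL10Aa and RpL10Ab, a further pair, had log2 fold changes of 0.55 (SE 0.47) and -0.63 (SE 0.39), at a limma adjusted p of 0.945 for both.

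Other tools run on the reads did not call any of the 8 genes. edgeR on the recovered whole reads called 0 of 9516 genes (0.0%) and gave 377 an unadjusted p under 0.05. DESeq2 on these reads made calls for 128 of 8759 genes (1.46%), and the lowest adjusted p among the 8 genes was 0.600, for RpL22. In the authors' deposited table, from DESeq2, 21 of 12051 genes (0.174%) had an adjusted p under 0.05 and the 8 genes were not among them. The authors' deposited table gives log2 fold changes of -1.20 for RpL22-like (p = 0.0487, adjusted p = 0.875) and -1.10 for RpL22 (p = 0.0913, adjusted p = 0.875).

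Genes whose levels varied over the 7 libraries most like RpL22 and RpL22-like were taken from the whole table. By Pearson's r of log2(normalized reads + 1), among 3482 genes whose mean reached 1000, RpL22 was most like Msp300, a giant protein linking nuclei to the cytoskeleton, su(w[a]), a splicing regulator, and Idgf3, a secreted chitinase-like growth factor, at r of 0.96, 0.94 and 0.93. Idgf3 had 1295 to 4676 normalized reads with eRpL22-like and 3577 to 10875 with eRpL22. RpL22-like was most like CG5623, deltaCOP, a subunit of the COPI vesicle coat, and CG8735, each at r = 0.97. deltaCOP had 505 to 4163 normalized reads with eRpL22-like and 3492 to 12285 with eRpL22. These values describe 7 libraries that share depth and preparation, and were picked as the highest of many.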

How the data were processed

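RNA from eRpL22-like or eRpL22 immunoprecipitates of testis lysates was turned into Kapa Hyper prep libraries and read from a single end, per the labels' protocols. Trim Galore, cutadapt, STAR and DESeq2 are named, without versions, in the submitters' processing notes. The sources used here do not give the genome build, annotation, read counter or use of strand, so no coordinates or sequences are printed. The deposited table gives the authors' normalized signal per library, their log2 fold change, Wald statistic (a score) and p-values, per the file headers. Columns were matched to samples by pulldown and replicate number in their names, and 0 per-sample columns were left unused. Every value of this signal equalled whole reads times a constant of its library (100% at a relative tolerance of 1e-06). Of the gene identifiers, 11952 matched a table of current names and 99 did not, and 4 names turned into dates were restored.

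limma 3.58.1 (R 4.3.3, trend, two-sided, Benjamini-Hochberg, threshold 0.05) was fitted to log2(normalized reads + 1) of 11174 genes whose mean reached 10. Fold changes on that scale understate changes of low genes. edgeR 4.0.16 and DESeq2 1.42.0 were run on the recovered reads as alternatives. Pair ratios were compared by exact permutation over libraries (Python 3.11.15). No transcript length was at hand, so the planned test of the paralogues per coding length was replaced by a description. The 8 genes, the other lists, the naming rule (the 8 genes, the 2 most abundant of each other ribosomal list, and the 3 genes most like RpL22 and RpL22-like) and the tests were chosen with earlier results of these data known. Over all tested genes, same-numbered libraries did not deviate together, so the numbers were not used as pairs in the main tests. That check was not made for the 8 genes by themselves, and some of them had smaller SEs with a replicate block, given below.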

Additional observations from a re-analysis of the deposited data

Results flagged for a closer look

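The log2 ratio of RpL34b to RpL34a in eRpL22-like replicate 3 was 7.96, against 1.32 to 2.12 in the other 3 eRpL22-like libraries, a gap that passes Dixon's criterion for 4 values. The log2(normalized reads + 1) of RpL34a itself in that library, 4.00, passes it too. No other value among the 4 log2 ratios or the log2 levels of the 8 genes in the eRpL22-like libraries did, nor did any level on the linear scale, and chance alone singles out about 1 in 20 such groups. The library had 4264 reads of RpL34b and 16 of RpL34a. RpL34b itself stood at -0.15 log2 units from its mean over the 7 libraries, so the ratio rests on the low RpL34a value. eRpL22 replicate 2 was the next highest, at 4.33.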

How the results depend on the processing

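No alternative brought any of the 8 genes past the test. The unadjusted limma p of RpL22 was 0.0495 with a pseudocount of 5 and 0.0326 with quantile normalization. The 4 pair ratios did not pass their test either, but most alternatives could not have let them. With a library left out or with the replicate block, too few libraries remained for a permutation p under 0.05. Only the other pseudocounts could have changed that outcome. In all, 127 gene comparisons kept their direction and 9 reversed, and 29 ratio comparisons kept theirs and 11 reversed. Leaving out eRpL22-like replicate 4 leaves replicates 1 to 3 of both pulldowns, so these counts include the same estimates more than once. The count of called genes was 0 in all limma fits with a library left out, 1 with quantile normalization and 128 with DESeq2. RpL24-like turned to -0.043 with edgeR and -0.048 with DESeq2. With 1 library left out in turn, log2 fold changes ran from -1.38 to -0.34 for RpL22, -1.57 to -0.92 for RpL22-like, -0.32 to 0.46 for RpL24, -0.18 to 0.63 for RpL24-like, -2.18 to 0.33 for RpL34a, -0.72 to -0.06 for RpL34b, -0.96 to 0.13 for RpL37a and -0.80 to -0.03 for RpL37b. Pair ratio differences ran from -0.82 to 0.42 for RpL22-like over RpL22, -0.14 to 0.35 for RpL24-like over RpL24, -0.68 to 1.92 for RpL34b over RpL34a and -0.17 to 0.59 for RpL37b over RpL37a. The sign of the fold change turned without eRpL22 replicate 2 or 3 (RpL24, RpL24-like), eRpL22-like replicate 1 (RpL24), eRpL22-like replicate 3 (RpL34a) and eRpL22 replicate 1 (RpL37a). That of the ratio difference turned without eRpL22 replicate 2 or eRpL22-like replicate 1 (RpL22 pair), eRpL22 replicate 2 or 3 or eRpL22-like replicate 2, 3 or 4 (RpL24 pair), eRpL22-like replicate 3 (RpL34 pair), and eRpL22 replicate 1 or eRpL22-like replicate 3 (RpL37 pair). The cause of the reversals was not tested. Over all tested genes, same-numbered libraries did not deviate together. The correlations of their deviations were 0.0030, 0.026 and 0.0089 for the 3 same-numbered pairs. On replicates 1 to 3, adding the replicate block took the SE from 0.572 to 0.397 for RpL22, 0.509 to 0.274 for RpL24 and 0.711 to 0.455 for RpL37a. It fell less for RpL24-like, RpL34a and RpL34b, and rose from 0.708 to 0.771 for RpL22-like and 0.561 to 0.590 for RpL37b. Whether same-numbered libraries share variation in these genes was not tested. With the replicate block over replicates 1 to 3, 0 genes were called, and the log2 fold change was -0.49 for RpL22 and -1.31 for RpL22-like. Ratio differences with the block were -0.82 for the RpL22 pair, 0.19 for the RpL37 pair and 1.50 for the RpL34 pair. The RpL24-like over RpL24 difference turned to -0.035. The exact sign-flip test gave p = 0.25 for the RpL22 and RpL37 pairs and 0.75 for the RpL34 pair. At 0.25, the smallest p possible, all 3 same-numbered differences of a pair had the same sign. Scaling to the other large-subunit genes, added after the data were seen, moved the median of all genes from -0.03 to 0.17. The planned comparison per coding length was not run, since no lengths were at hand. At 16 reads, RpL34a in eRpL22-like replicate 3 has the least depth behind any value of the 8 genes.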

Other observations

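The same ratio was computed for 7 other ribosomal protein pairs of the lists, a choice made after the data were seen. In 2 of these 7 the ratios did not overlap between pulldowns. No share over other gene pairs was computed to set beside that count. Of single genes, 5.14% of all tested did not overlap in level. RpL10Aa, which like RpL10Ab encodes a form of the protein at the stalk beside the ribosome's exit site, had 0.876, 0.783, 1.35 and 0.557 times the reads of RpL10Ab in eRpL22-like replicates 1 to 4, against 0.303, 0.338 and 0.518 in eRpL22 replicates 1 to 3. The log2 ratio differed by 1.17 (exact permutation test, two-sided, p = 0.0571, Benjamini-Hochberg adjusted p = 0.314 over 11 pairs). RpS14b had 0.453 to 0.515 times the reads of RpS14a in the 4 eRpL22-like libraries and 0.191 to 0.299 times in the 3 eRpL22 libraries, a log2 difference of 1.04 (exact permutation test, p = 0.0286, the smallest it can give, adjusted p = 0.314 over 11 pairs). RpS14a and RpS14b are neighbouring near-identical copies, so how reads were divided between them is uncertain. Neither pair passed the adjustment, but a pair alone at the smallest permutation p, 0.0286, gets 0.314 over 11 pairs, so it could not have passed. In the 4 large-subunit pairs described above, the differences ran from -0.23 to 0.91 with overlapping ratios.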
